A study of Mus musculus with 9 samples.

Results

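The 6 arrays compared here profile peripheral blood of E12.5 mouse embryos that were homozygous (CbfbΔC95/ΔC95) or wild type (Cbfb+/+) at the Cbfb locus. They were chosen by the genotype in their titles, 3 arrays of each, out of 9 in the series. The other 3 arrays hold heterozygous blood (Cbfb+/ΔC95) and enter the shared estimate of spread. All embryos came from matings of heterozygous parents on a mixed C57BL6/129SvEv background, so wild-type and homozygous embryos differ in carrying 0 or 2 copies of the ΔC95 allele. The allele is present throughout the embryo, not only in blood cells. Its structure is not spelled out in the labels, and the series title places it in a study of the C-terminus of the fusion protein CBFβ-SMMHC. Frozen blood of 8 to 10 embryos of 1 genotype was pooled before RNA extraction. Nothing in the labels says if each array had a pool of its own. If it did not, the spread behind every p-value is technical only.

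Core binding factor is a transcription factor made of a DNA-binding RUNX protein and its partner CBFβ, which strengthens that binding. The factor is needed for definitive blood formation, which follows the first, primitive blood cells of the yolk sac. CBFβ-SMMHC joins CBFβ to the tail of smooth muscle myosin and is known from the inversion of chromosome 16 in human acute myeloid leukaemia. At mid-gestation the circulating blood consists mostly of large nucleated primitive red cells that carry embryonic globins and are completing their maturation. Macrophages, megakaryocytes, platelets and progenitors are few among them. Setting homozygous against wild-type blood asks which transcripts differ when both copies of Cbfb carry the allele.

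Signals are on a log2 scale, and a difference is the homozygous mean minus the wild-type mean, so -1 is a 2-fold lower signal. A gene is called where limma gave an adjusted p under 0.05, and each gene is read by its brightest probe set. Homozygous and wild-type arrays correlated at 0.987 to 0.988 across probe sets, and arrays of the same genotype at 0.996 to 0.998. The targeted gene read 6.00, 6.04 and 5.98 on the wild-type arrays and 4.93, 5.13 and 5.25 on the homozygous arrays. Its probe set thus fell by 0.90 with an SE of 0.08 (adjusted p = 3.39e-06). Runx1 at 0.17 and Myh11 at 0.17 were not called. Which transcripts of the ΔC95 allele the Cbfb and Myh11 probe sets can detect was not tested. Their signals therefore do not show how much RNA the mutant locus makes. The poly-A spike-ins, bacterial RNAs added before labelling, rose by 1.58 on average from 10.38 in wild-type arrays, and hybridization spike-ins, added later, by 0.28. Within a genotype the poly-A spike-ins were close, at 10.36 to 10.40 on the wild-type and 11.94 to 11.99 on the homozygous arrays. They were at 11.26 on each heterozygous array. If arrays of a genotype shared a preparation was not tested. If the poly-A spike-ins were set equal, every difference below would be lower by 1.58, and 0 genes are called higher by more than that. All directions are therefore relative to the rest of the RNA on the same array, and the part of the spike-in difference in them was not tested. The 3' minus 5' signal of Actb, a measure of RNA integrity, was 1.20 in both genotypes. Among sex-linked transcripts, Xist was higher by 1.22 on its brightest probe set but at -0.28 and -0.24 on the others, and the Y-linked Eif2s3y fell by 0.47.

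Of 18193 genes measured, 4661 were called (25.6%), of which 2711 were lower (14.9% of all genes) and 1950 higher (10.7%) in homozygous blood. Over the 45037 probe sets tested, 9019 were called (20.0%), 5261 lower (11.7%) and 3758 higher (8.34%). For 7144 genes the homozygous arrays lay all above or all below the wild-type arrays (39.3%). The median called fall was -0.52 and the largest -3.56, whereas the median called rise was 0.33 and the largest 1.54. A fall of at least 2-fold was called in 346 genes (1.9%) and a rise of that size in 29 (0.159%). Falls beyond 3 log2 units were seen in 12 genes and rises beyond 2 in 0. Calls were more frequent at high signal, with 2.67% of genes lower and 2.58% higher in the dimmest 3639 genes against 34.2% and 25.8% in the brightest 3639. Of the 532 further probe sets of the genes that fell at least 2-fold, 252 were called lower, 4 higher and 276 not called.

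**Figure D1:**
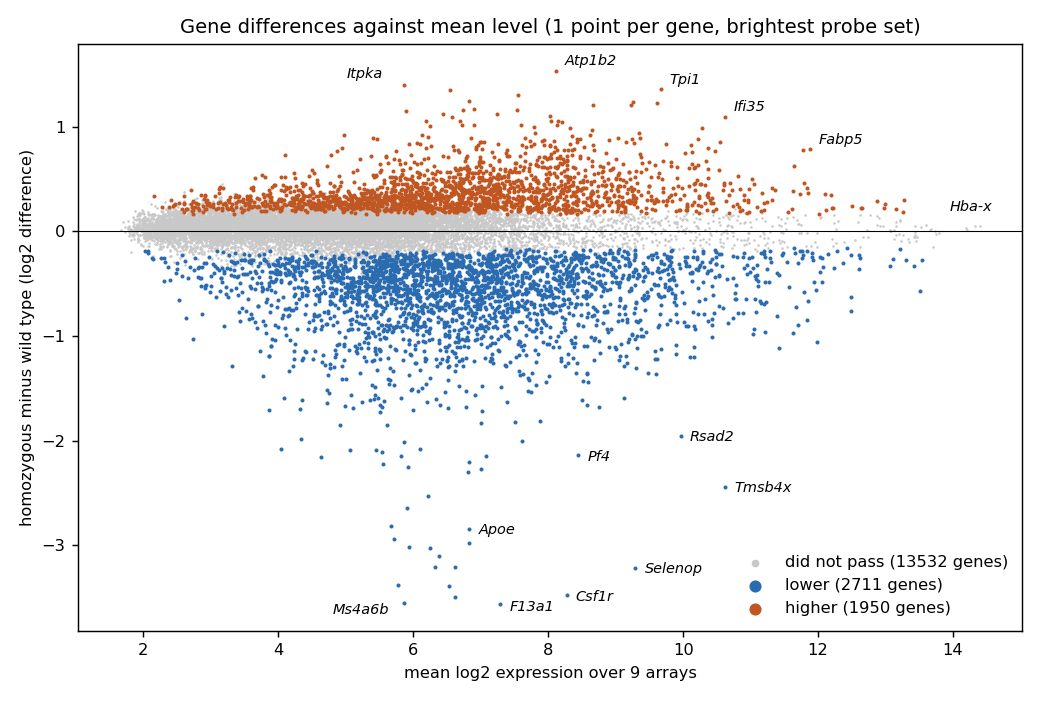
Homozygous minus wild-type log2 difference of each of 18193 genes against its mean log2 signal over the arrays, with called genes coloured by direction. The falls reach -3.56 and the rises 1.54, and called genes crowd toward the right, where signal is high.

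The 30 genes with the largest falls were mostly those of macrophages and platelets. Lists of myeloid genes held 19 of them and lists of platelet and megakaryocyte genes 4, with 22 in either. The 30 largest rises held 0. These lists were chosen with earlier results of these data known, so the overlap is a description and not a separate result. In pooled blood, fewer cells of a type and less RNA per cell cannot be told apart. For 6 of the genes with the largest falls, the 250 bases before the first listed start of transcription are shown, because they are where a promoter-bound RUNX or ETS factor would be looked for. They come from RefSeq on assembly GRCm38.p6, in the direction of transcription. Capitals mark letters of the RUNX motif, TGTGGT, or the same letters with its inner T replaced by C, and of the ETS motif bound by the macrophage regulator PU.1 and its relatives, GGAAGT. Both strands were searched, so a match may read as the reverse complement, and no 2 matches shown overlap.
Ms4a6b, chr19:11518309-11518558, plus strand: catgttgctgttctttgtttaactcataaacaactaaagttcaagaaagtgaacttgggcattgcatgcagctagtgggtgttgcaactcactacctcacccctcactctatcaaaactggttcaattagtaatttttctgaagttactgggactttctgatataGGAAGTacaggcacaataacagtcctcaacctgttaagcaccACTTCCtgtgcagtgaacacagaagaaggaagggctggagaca
Mrc1, chr2:14229164-14229413, plus strand: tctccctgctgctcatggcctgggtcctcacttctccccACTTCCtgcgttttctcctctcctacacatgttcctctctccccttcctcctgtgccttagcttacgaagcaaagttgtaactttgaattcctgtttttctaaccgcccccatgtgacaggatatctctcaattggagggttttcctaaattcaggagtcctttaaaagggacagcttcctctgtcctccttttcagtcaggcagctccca
Fcgr3, chr1:171059404-171059653, minus strand: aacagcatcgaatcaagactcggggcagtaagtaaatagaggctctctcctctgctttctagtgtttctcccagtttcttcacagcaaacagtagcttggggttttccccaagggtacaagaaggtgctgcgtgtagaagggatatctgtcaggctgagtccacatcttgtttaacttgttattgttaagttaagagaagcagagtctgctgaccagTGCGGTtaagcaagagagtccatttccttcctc
Lyz1, chr10:117292869-117293118, minus strand: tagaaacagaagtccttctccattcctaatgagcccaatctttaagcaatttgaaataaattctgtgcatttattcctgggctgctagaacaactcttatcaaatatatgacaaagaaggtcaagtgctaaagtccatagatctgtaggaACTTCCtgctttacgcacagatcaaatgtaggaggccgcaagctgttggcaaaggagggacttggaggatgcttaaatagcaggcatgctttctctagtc
F13a1, chr13:37050245-37050494, minus strand: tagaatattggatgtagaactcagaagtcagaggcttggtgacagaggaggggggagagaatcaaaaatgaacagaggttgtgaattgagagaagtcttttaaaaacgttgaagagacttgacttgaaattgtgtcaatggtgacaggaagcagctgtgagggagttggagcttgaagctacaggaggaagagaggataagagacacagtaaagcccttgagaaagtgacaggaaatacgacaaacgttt
Ppbp, chr5:90768268-90768517, plus strand: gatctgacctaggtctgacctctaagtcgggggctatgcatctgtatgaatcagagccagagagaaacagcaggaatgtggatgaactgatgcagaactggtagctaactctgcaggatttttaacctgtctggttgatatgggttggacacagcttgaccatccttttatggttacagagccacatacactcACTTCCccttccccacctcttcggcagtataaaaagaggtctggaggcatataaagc

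Ms4a6b carried 2 ETS matches, the mannose receptor gene Mrc1, the lysozyme gene Lyz1 and the platelet chemokine gene Ppbp 1 each, Fcgr3 a RUNX match, and F13a1 neither. Of the 30 genes with the largest falls, 24 had a promoter in the table, and GGAAGT was present in 14 (58.3%). The share was 28.0% (7 of 25) for the 30 largest rises, 27.6% (81 of 294) for all genes that fell at least 2-fold, and 21.5% (3114 of 14452) for all measured genes. The RUNX letters were present in 25.0% (6 of 24) of the largest falls, 28.0% (7 of 25) of the largest rises and 17.7% (2552 of 14452) of measured genes. A match in this window is a description of the sequence only, and the ETS letters were chosen after these promoters had been read.

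Markers of the cell types that embryonic blood could hold were summed on a linear scale. Macrophage markers summed to 1523 to 1550 on the wild-type arrays and 228 to 243 on the homozygous arrays, with 7 of 7 genes lower. Megakaryocyte markers fell from 1197 to 1218 to between 382 and 437, with 6 of 6 lower, and granulocyte markers from 410 to 449 to between 192 and 202, with 3 of 6 lower. The granulocyte sum rests largely on Mpo, its brightest gene in wild-type blood, with log2 means of 7.82 in wild-type and 5.62 in homozygous blood. Elane (4.52 and 4.63) and Ngp (5.10 and 5.19) did not fall. Markers of the labelled tissue were at the top of the scale in both genotypes. Embryonic globins, Slc4a1 and Alas2 summed to 76705 to 76974 in wild-type and 77193 to 78220 in homozygous blood. The hepatocyte and visceral endoderm markers Afp, Alb, Apoa1 and Ttr moved the other way, 4 of 4 higher, from 465 to 471 up to between 805 and 873. Mesenchymal markers summed to 262 to 272 and to 195 to 202 (2 of 4 lower). Mast cell markers were at 49.5 to 61.0 and 34.4 to 41.2, with 1 of 3 lower. The 4 measured lymphoid markers gave 68.3 to 74.9 and 74.5 to 81.3 and the 4 endothelial markers 63.9 to 70.1 and 57.5 to 66.8, with none called in either list. Neural, muscle and epithelial markers each had 1 gene called higher, of 3, 4 and 3. Deposited values do not fall to 0 for an absent transcript. The heterozygous arrays gave 1211 to 1227 for macrophage and 1510.5 to 1554 for megakaryocyte markers. The part of the other cell types in the differences below was not tested.

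**Figure D2:**
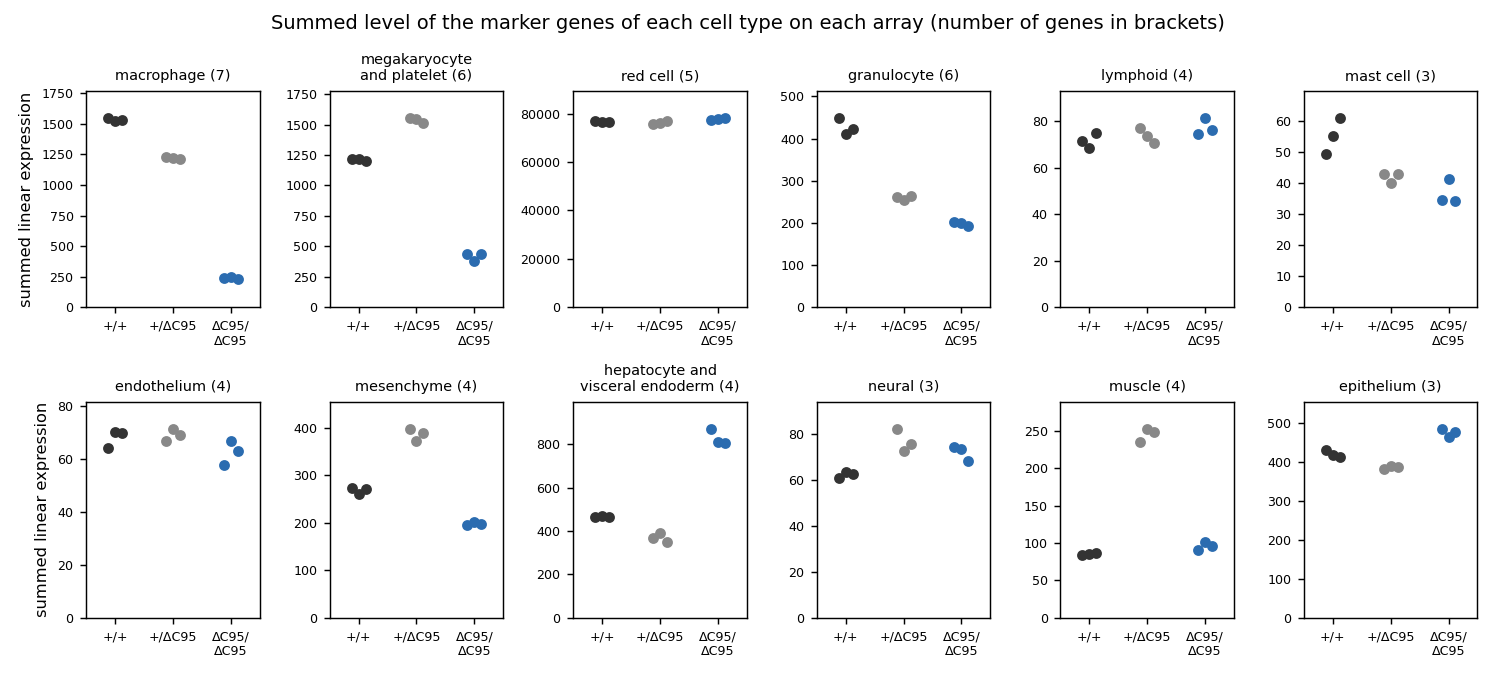
Summed linear signal (arbitrary units) of the marker genes of each cell type, 1 point per array, for wild-type, heterozygous and homozygous blood, each axis from 0. Macrophage, megakaryocyte and granulocyte markers are lowest on the 3 homozygous arrays and hepatocyte and visceral endoderm markers highest.

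Genes of macrophage surface receptors and other markers of macrophage identity fell. Of 29 measured, 17 were lower and none higher, with a median of -0.54 against 0.05 over all genes. The mannose receptor gene Mrc1, which marks fetal tissue macrophages, read 7.88, 7.79 and 7.79 on the wild-type arrays and 4.30, 4.36 and 4.32 on the homozygous arrays. The homozygous arrays lay far below every wild-type array, a difference of -3.49 ± 0.06 (SE; 11.3-fold, adjusted p = 2.15e-11). Csf1r, the growth factor receptor on which most macrophages depend, read 9.62, 9.59 and 9.64 on the wild-type arrays and 6.08, 6.28 and 6.06 on the homozygous arrays. Its other probe sets, at -1.46 and -0.78, gave smaller falls. Lyz2, a lysozyme gene of the same family as Lyz1, read 7.41, 7.49 and 7.44 on the wild-type arrays and 4.87, 4.81 and 5.07 on the homozygous arrays, at -2.53 ± 0.07 (SE; 5.78-fold, adjusted p = 9.96e-10). Ptprc, which encodes the leukocyte antigen CD45, differed by -2.08. Adgre1, which encodes F4/80, differed by -1.30 and Cd68, a lysosomal glycoprotein of macrophages, by -1.23. Clec4n at -1.37 encodes Dectin-2, a receptor for fungal mannans, and Cd14 at -1.14 the co-receptor for bacterial lipopolysaccharide. Smaller falls were called for Aif1 (-0.90), Lyve1 (-0.81), Stab1 (-0.62), Folr2 (-0.55) and Clec7a (-0.36). The remaining 12 genes were not called, among them Cd163 at -0.10, Timd4 at -0.04, Marco at 0.11, Cx3cr1 at 0.01 and Trem2 at 0.20. Their mean signals in wild-type blood were 3.37, 3.63, 4.39, 4.44 and 5.17, against array medians of 4.262 to 4.295.

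Some receptors that bind antibody, and adaptors they signal through, were also lower. Fcgr3, the low-affinity IgG receptor of macrophages, read 7.79, 7.82 and 7.71 on the wild-type arrays and 4.48, 4.37 and 4.29 on the homozygous arrays. Tyrobp, the adaptor also called DAP12, read 7.54, 7.48 and 7.50 on the wild-type arrays and 4.18, 4.15 and 4.57 on the homozygous arrays. The second such adaptor, Fcer1g, the common gamma chain of Fc receptors, read 6.98, 6.93 and 7.01 on the wild-type arrays and 5.24, 5.22 and 5.49 on the homozygous arrays. The groups were apart in each case, and the differences were -3.39 ± 0.06 (SE; 10.5-fold, adjusted p = 3.39e-11), -3.21 ± 0.10 (SE; 9.23-fold, adjusted p = 1.73e-09) and -1.66 ± 0.07 (SE; 3.15-fold, adjusted p = 2.79e-08). The high-affinity receptor Fcgr1 fell by 1.73. Of 20 measured genes of this group, 8 were lower and none higher, the others being the inhibitory receptor Sirpa (-0.71), the phospholipase Plcg2 (-0.68), the kinase Btk (-0.57) and Cd300a (-0.38). The kinase genes Syk at -0.09 and Fgr at -0.02 and the phosphatase gene Ptpn6 at -0.14 were not called. The inhibitory receptor Fcgr2b depended on the probe set, at 0.06 on the brightest and not called, and at -2.23 and -0.51 on the others. Clec4a2, an inhibitory lectin, was at 0.07 on its brightest probe set and at -1.59 on another.

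The complement component C1q is assembled from the products of C1qa, C1qb and C1qc, which macrophages make. C1qa read 6.93, 6.93 and 6.94 on the wild-type arrays and 3.43, 4.36 and 3.95 on the homozygous arrays. C1qc read 7.60, 7.52 and 7.51 on the wild-type arrays and 3.73, 4.78 and 4.80 on the homozygous arrays, where the first homozygous array was about 1 log2 unit below the other two but all lay far from wild type. The differences were -3.02 ± 0.17 (SE; 8.11-fold, adjusted p = 1.15e-07) and -3.11 ± 0.22 (SE; 8.62-fold, adjusted p = 7.14e-07). The SE pools all 3 genotypes, and for C1qc the SD was 0.61 on the homozygous arrays and 0.05 on the wild-type arrays. C1qb gave -0.73 on its brightest probe set and -3.60 and -2.79 on the others. The anaphylatoxin receptor C3ar1 fell by 0.86. Of 11 measured complement genes, 4 (36.4%, against 14.9% of all genes) were lower and none higher. C5ar1 at 0.06 and the integrin subunits Itgb2 at -0.29 and Itgax at -0.14 were not called. In the Ms4a family of membrane proteins, 4 of 11 genes (36.4%) were called, all lower. Ms4a6b read 7.18, 7.19 and 7.23 on the wild-type arrays and 3.55, 3.64 and 3.75 on the homozygous arrays, at -3.55 ± 0.07 (SE; 11.7-fold, adjusted p = 3.77e-11). Ms4a6d (-2.22), Ms4a7 (-1.29) and Ms4a6c (-0.98) were also lower. The B cell gene Ms4a1 at 0.12 and the mast cell gene Ms4a2 at 0.03 were not called.

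**Figure D3:**
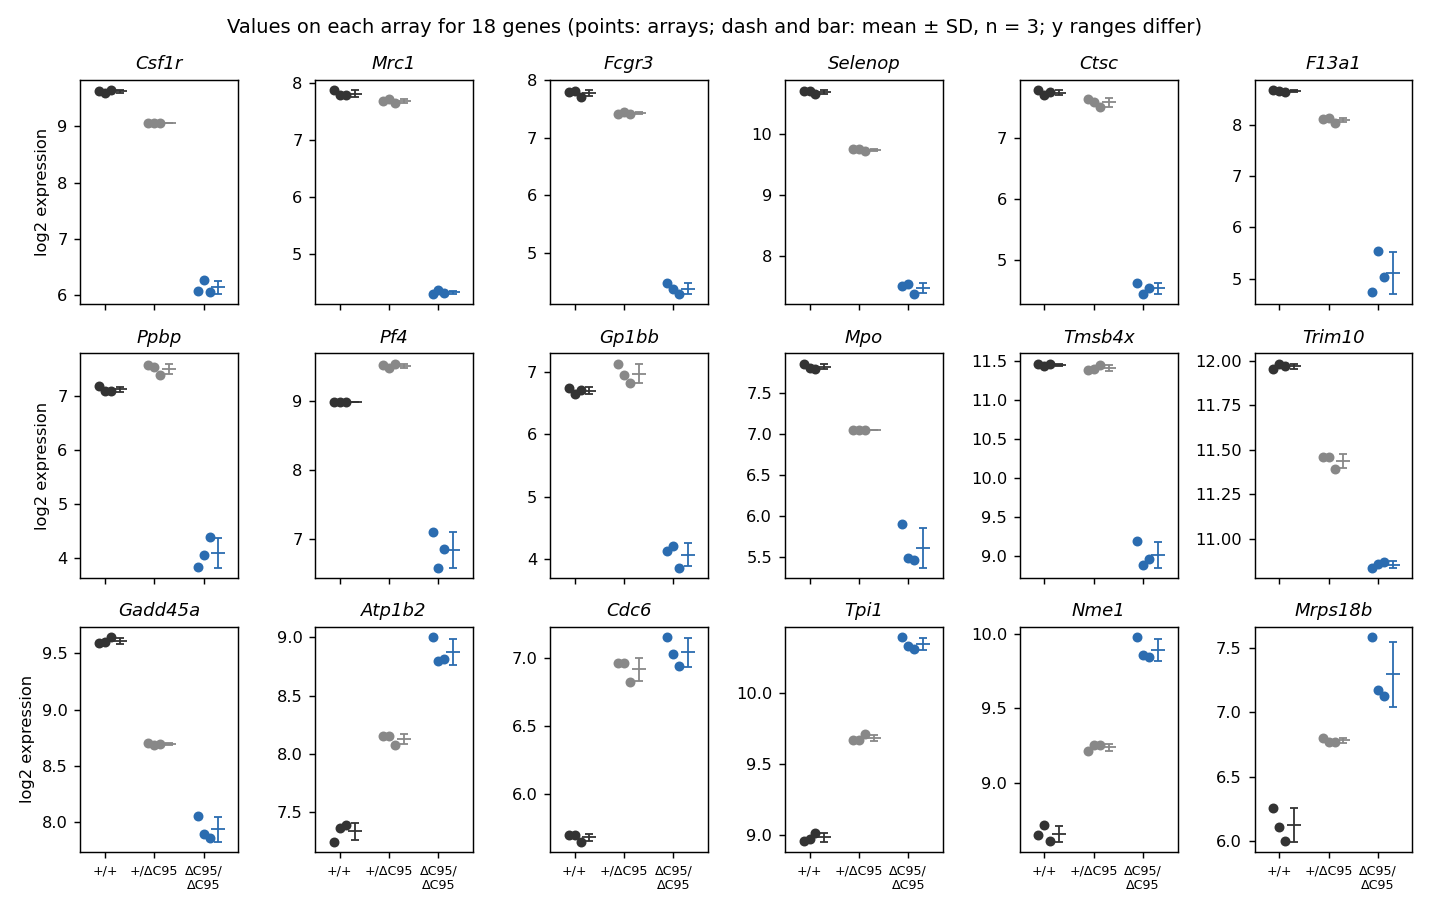
Log2 signal of 18 genes on each array of wild-type (+/+), heterozygous (+/ΔC95) and homozygous (ΔC95/ΔC95) blood, with the mean and SD of 3 arrays as a dash and bar and a vertical range set for each gene. For Csf1r, Mrc1, Fcgr3, Selenop, Ctsc, F13a1, Ppbp, Pf4, Gp1bb, Mpo, Tmsb4x, Trim10 and Gadd45a the homozygous arrays lie below every wild-type array, and for Atp1b2, Cdc6, Tpi1, Nme1 and Mrps18b above.

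Lysosomal genes had the highest share of called members among the 52 lists, with 19 of 20 lower, none higher and a median of -0.59. The dipeptidyl peptidase gene Ctsc read 7.78, 7.70 and 7.76 on the wild-type arrays and 4.62, 4.44 and 4.54 on the homozygous arrays. The elastolytic protease gene Ctss read 6.90, 7.11 and 6.89 on the wild-type arrays and 3.95, 4.27 and 4.23 on the homozygous arrays. Their differences were -3.21 ± 0.07 (SE; 9.27-fold, adjusted p = 4.59e-11) and -2.82 ± 0.09 (SE; 7.05-fold, adjusted p = 2.86e-09). The mannosidase gene Man2b1 fell by 1.69, the cathepsin genes Ctsl and Ctsh by 1.28 and 0.95, progranulin, encoded by Grn, by 0.91 and the asparaginyl endopeptidase gene Lgmn by 0.88. Smaller falls were called for broadly expressed genes, including Ctsb (-0.39), Psap (-0.26), Ctsd (-0.22) and Lamp1 (-0.19). Of these, Ctsd and Lamp1 were not called when some single arrays were left out. The osteoclast protease gene Ctsk was not called, at 0.08. Laptm5, a lysosomal membrane protein of blood cells, was at -2.15 on its brightest probe set but at -0.01, 0.07, -0.31 and -0.22 on the others.

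Genes by which macrophages handle lipids and metals moved in both directions. Selenop, the secreted selenium carrier, read 10.70, 10.70 and 10.64 on the wild-type arrays and 7.50, 7.53 and 7.37 on the homozygous arrays, a difference of -3.22 ± 0.06 (SE; 9.3-fold, adjusted p = 3.39e-11). Apoe, the apolipoprotein macrophages secrete, read 8.22, 8.24 and 8.15 on the wild-type arrays and 5.41, 5.18 and 5.49 on the homozygous arrays, at -2.85 ± 0.08 (SE; 7.19-fold, adjusted p = 6.7e-10). The cholesterol exporter Abca1 was at -2.95 on its brightest probe set and at 0.07 and 0.13 on the others. Lipoprotein lipase, encoded by Lpl, fell by 0.64 and the phagosomal metal transporter Slc11a1 by 0.55. The second cholesterol exporter Abcg1 rose by 0.65, and the fatty acid binding protein gene Fabp5 by 0.78. In all, 7 of 16 were lower and 2 higher. The iron exporter Slc40a1 at -0.16, heme oxygenase Hmox1 at -0.02 and the scavenger receptor Cd36 at -0.13 were not called.

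Chemokine and inflammatory sensing genes were called in smaller numbers. The platelet chemokine Pf4, described below, was 1 of 5 lower (27.8%, against 14.9% of all genes) among 18 chemokines and their receptors. Ccl9 read 6.11, 6.25 and 6.05 on the wild-type arrays and 4.45, 4.82 and 4.45 on the homozygous arrays, and Ccl12 read 4.83, 5.21 and 4.81 on the wild-type arrays and 3.47, 3.73 and 3.94 on the homozygous arrays. The chemokine receptor Ccr1 fell by 1.09 and Ccl3 by 0.74. Ccl2 at -0.04, Ccl4 at -0.14 and Cxcl12 at 0.10 were not called. Of 20 innate sensing genes, 4 were lower, against 14.9% of all genes, and the count was 2 when any of 5 single arrays was left out, namely homozygous 1 or 3 or any wild-type array. The larger falls were Ly86, partner of a Toll-like receptor homologue, at -1.61 ± 0.07 (SE; 3.05-fold, adjusted p = 2.37e-08), and Pycard, the inflammasome adaptor, at -1.47 ± 0.20 (SE; 2.76-fold, adjusted p = 0.00019). Toll-like receptor genes were not called, with Tlr2 at -0.34 and Tlr4 at 0.20. Of 15 antigen presentation genes, 3 (20.0%) were lower, against 14.9% of all genes. They were the maturation marker Cd83 (-0.52), the immunoproteasome subunit Psmb8 (-0.44) and beta-2 microglobulin, B2m (-0.40). The class I gene H2-K1 at 0.06 and the class II genes H2-Aa at -0.05 and H2-Ab1 at 0.06 were not called.

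Among 18 transcription factors of myeloid cells, 6 (33.3%) were lower and none higher, against 14.9% and 10.7% of all genes. The macrophage factor Maf read 6.19, 6.33 and 6.22 on the wild-type arrays and 4.09, 4.05 and 4.32 on the homozygous arrays. Tfec, a relative of Mitf in macrophages, read 4.78, 5.00 and 4.92 on the wild-type arrays and 3.26, 3.51 and 3.17 on the homozygous arrays, and Cebpd read 5.12, 5.26 and 5.53 on the wild-type arrays and 3.91, 4.28 and 3.92 on the homozygous arrays. The differences were -2.09 ± 0.07 (SE; 4.27-fold, adjusted p = 6.24e-09), -1.59 ± 0.10 (SE; 3.01-fold, adjusted p = 2.4e-07) and -1.27 ± 0.11 (SE; 2.41-fold, adjusted p = 5.67e-06). Spi1, which encodes PU.1, differed by only -0.38 and Cebpa by -0.38, and the call for Spi1 was lost when single arrays were left out. Irf8 at 0.03, Klf4 at -0.21, Id2 at 0.12 and Gfi1 at -0.08 were not called. Of 18 granule protein genes, 6 (33.3%) were lower, against 14.9% of all genes. Myeloperoxidase, Mpo, a product of early granulocytes, read 7.86, 7.81 and 7.79 on the wild-type arrays and 5.90, 5.49 and 5.47 on the homozygous arrays, a difference of -2.20 ± 0.10 (SE; 4.6-fold, adjusted p = 2.77e-08). Cyba, the membrane subunit of the phagocyte oxidase, read 6.81, 6.74 and 6.69 on the wild-type arrays and 4.72, 5.17 and 5.45 on the homozygous arrays. S100a8 fell by 1.09, Prtn3, the gene of proteinase 3, by 0.52 and the oxidase subunit Ncf1 by 0.44. Neutrophil elastase, Elane, at 0.10, the secondary granule genes Ltf at -0.12 and Ngp at 0.09, and the eosinophil genes Epx at 0.16 and Prg2 at 0.08 were not called.

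Platelet genes were the second group with large falls. Of 15 genes of platelet granule proteins 9 were lower, and of 18 platelet receptors 10, with none higher in either list. The chemokine gene Ppbp read 7.18, 7.09 and 7.09 on the wild-type arrays and 3.84, 4.06 and 4.39 on the homozygous arrays, and Pf4 read 8.99, 8.99 and 8.99 on the wild-type arrays and 7.10, 6.58 and 6.85 on the homozygous arrays. Their differences were -3.03 ± 0.11 (SE; 8.14-fold, adjusted p = 8.06e-09) and -2.14 ± 0.10 (SE; 4.41-fold, adjusted p = 4.22e-08). The 3 wild-type values of Pf4 were identical (SD 0), as were the 3 heterozygous values of Csf1r, Lyz2, Mpo and Evi2a. In further genes some arrays of a genotype shared a value, as the heterozygous arrays did for Lyz1, Apoe, Atp1b2 and Tpi1. Such ties lower the shared estimate of spread. F13a1, the clotting factor XIII subunit made by megakaryocytes and macrophages, had the largest fall of any gene by its brightest probe set. It read 8.69, 8.66 and 8.64 on the wild-type arrays and 4.73, 5.54 and 5.03 on the homozygous arrays, at -3.56 ± 0.15 (SE; 11.8-fold, adjusted p = 1.7e-08), and the homozygous arrays had an SD of 0.41. The granule proteoglycan gene Srgn fell by 1.82, Thbs1, the gene of thrombospondin, by 1.02 and Vwf, the gene of von Willebrand factor, by 0.69. The growth factor genes Pdgfb at -0.06 and Tgfb1 at -0.04 and the clotting factor gene F5 at 0.02 were not called.

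The receptor for von Willebrand factor is assembled from the products of Gp1bb, Gp9 and Gp5 with another subunit. Gp1bb read 6.75, 6.64 and 6.71 on the wild-type arrays and 4.13, 4.20 and 3.85 on the homozygous arrays, a difference of -2.64 ± 0.10 (SE; 6.24-fold, adjusted p = 7.71e-09), with -0.01 on its other probe set. Gp9 read 7.35, 7.45 and 7.35 on the wild-type arrays and 6.45, 6.53 and 6.69 on the homozygous arrays and Gp5 read 5.90, 6.09 and 5.96 on the wild-type arrays and 5.34, 4.97 and 4.91 on the homozygous arrays, smaller falls of 0.82 and 0.91. Itga2b and Itgb3, the subunits of the fibrinogen receptor, fell by 0.72 and 0.82. The podoplanin receptor Clec1b, also called CLEC-2, read 6.07, 6.01 and 6.14 on the wild-type arrays and 4.39, 4.72 and 4.13 on the homozygous arrays, at -1.66 ± 0.12 (SE; 3.17-fold, adjusted p = 8.27e-07). The collagen receptor Gp6 was at 0.15, and the thromboxane and thrombin receptors Tbxa2r and F2rl3 were at 0.01 and -0.05, none of them called. Of 18 platelet signalling and cytoskeletal genes, 9 were lower and 1 higher. The higher gene was Pdlim1 at 0.20, a call lost when wild-type array 1 or 2 was left out. Alox5ap, which presents arachidonate to its lipoxygenase, differed by -2.08, the kinase substrate pleckstrin, Plek, by -1.71 and the platelet lipoxygenase Alox12 by -1.30. Tubb1, the tubulin of the platelet marginal band, differed by -0.58 and the integrin activator Fermt3 by -0.89. Talin, Tln1, at 0.06 and the granule genes Nbeal2 at 0.12 and Rab27b at 0.11 were not called.

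Differences among transcription factors of megakaryocytes were small. Of 11, 4 were lower (2 when wild-type array 1 or 2 was left out) and 2 higher. Over all genes 14.9% were lower and 10.7% higher. Mef2c fell by 0.76, Hhex by 0.37 and Mafg by 0.35, and Gfi1b rose by 0.38. Gata1, the master factor shared with red cells, read 10.84, 10.89 and 10.90 on the wild-type arrays and 11.13, 11.02 and 11.02 on the homozygous arrays, and its rise of 0.18 was lost when single arrays were left out. Fli1 at 0.08, Gata2 at -0.18 and Etv6 at -0.01 were not called.

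**Figure D4:**
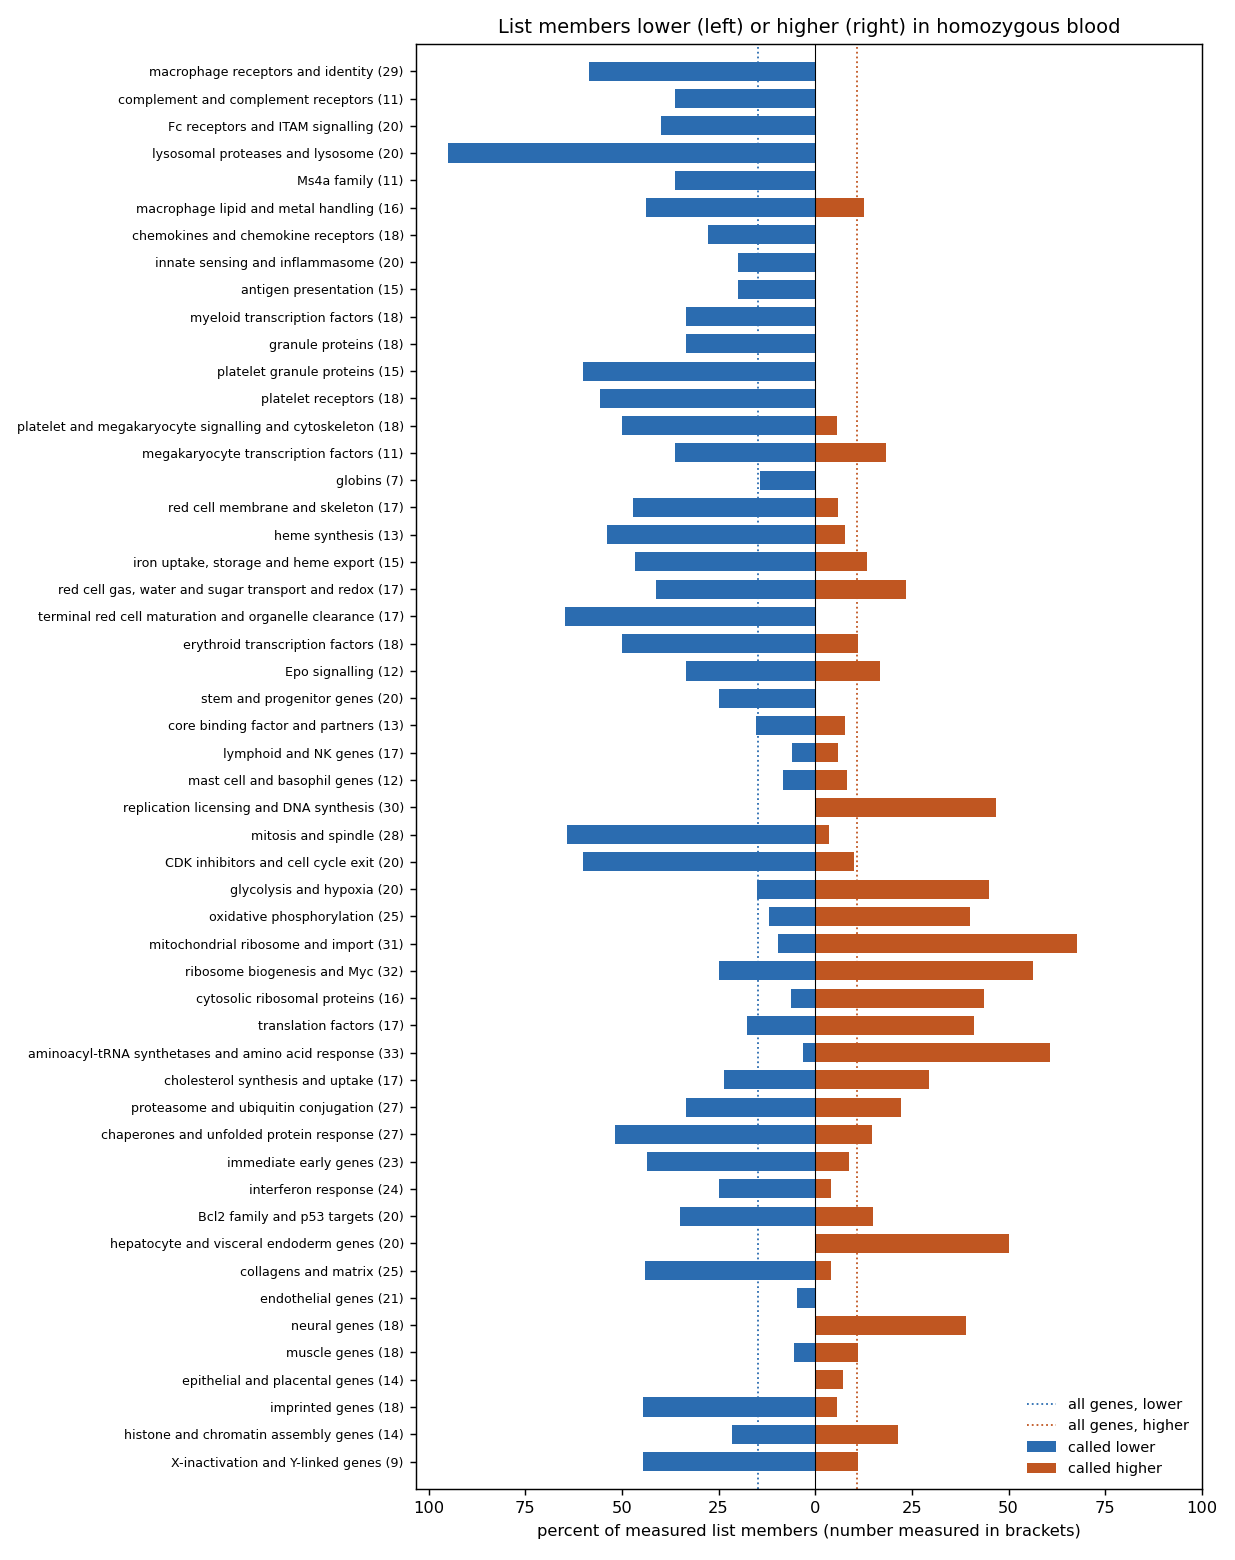
Percent of measured genes called higher and lower in homozygous blood for each gene list, as bars to the right and left, with the shares over all genes as dotted lines at 10.7% and 14.9%. The lists of lysosomal genes, terminal red cell maturation and mitosis reach furthest on the lower side, followed by those of cell cycle exit, platelet granule proteins and macrophage receptors, and mitochondrial ribosome, amino acid and ribosome biogenesis lists on the higher side.

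Red cell genes showed a mixed pattern. Embryonic globin transcripts were level at the top of the scale, where the arrays may no longer resolve a difference. Hba-x, the embryonic alpha-like globin, read 14.30, 14.28 and 14.30 on the wild-type arrays and 14.33, 14.35 and 14.37 on the homozygous arrays, and Hbb-bh1, an embryonic beta-like globin, read 14.38, 14.38 and 14.37 on the wild-type arrays and 14.41, 14.43 and 14.43 on the homozygous arrays. Neither was called. The adult gene Hba-a2, on a dimmer probe set of its own, read 8.13, 8.09 and 8.12 on the wild-type arrays and 7.35, 7.32 and 7.33 on the homozygous arrays, a fall of 0.78 and the only call among 7 globin genes. Among globin genes 14.3% were thus lower, against 14.9% of all genes. In the membrane and its skeleton, 8 of 17 genes (47.1%) were lower and 1 (5.88%) higher. Mpp1, a palmitoylated protein of the red cell membrane, read 9.37, 9.34 and 9.35 on the wild-type arrays and 7.78, 7.63 and 7.66 on the homozygous arrays, a difference of -1.66 ± 0.06 (SE; 3.16-fold, adjusted p = 1.06e-08). Cd24a, a surface glycoprotein of immature red cells, was at -1.06, protein 4.2, Epb42, at -0.62 and the tropomodulin Tmod1 at -0.53. The spectrin gene Sptb rose by 0.29. The anion exchanger Slc4a1 at 0.01, Ank1, the gene of ankyrin, at -0.08 and Add2 at 0.00 were not called.

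Heme and iron genes were more often lower than higher, 7 against 1 of 13 and 7 against 2 of 15. Over all genes 14.9% were lower and 10.7% higher, and in the brightest 3639 genes 34.2% and 25.8%. In heme synthesis the falls were led by Clpx, the mitochondrial unfoldase that acts on the first enzyme of the pathway, at -0.94 ± 0.06 (SE; 1.91-fold, adjusted p = 4.46e-07). The mitochondrial glycine carrier Slc25a38 read 9.25, 9.26 and 9.24 on the wild-type arrays and 8.48, 8.47 and 8.49 on the homozygous arrays, a fall of 0.77. The synthase gene Uros fell by 0.48 and the last enzyme, Fech, by 0.26. Alas2, the first enzyme of the red cell pathway, was at -0.16, a call lost when single arrays were left out. The middle enzymes Alad (0.08), Urod (-0.03), Cpox (0.02) and Ppox (0.08) were not called. Among iron genes, Hfe, a regulator of iron sensing, fell by 1.70 and Flvcr1, the heme exporter, by 1.56. Flvcr1 read 7.73, 7.62 and 7.67 on the wild-type arrays and 6.09, 6.08 and 6.15 on the homozygous arrays. Ireb2, an iron regulatory protein, was at -0.91, whereas its relative Aco1 was at 0.33. The transferrin receptor Tfrc fell by 0.58 and the ferritin receptor Ncoa4 by 0.57. Ferritin heavy chain, Fth1, at 0.01 and Slc11a2, the endosomal iron transporter, at 0.13 were not called.

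By brightest probe set, the 2 largest rises of all genes were those of Atp1b2 and Itpka. Both are in the list of red cell transport and redox genes, which was chosen with earlier results of these data known. Atp1b2, a beta subunit of the sodium pump, read 7.25, 7.37 and 7.39 on the wild-type arrays and 9.00, 8.80 and 8.82 on the homozygous arrays, at 1.54 ± 0.07 (SE; 2.9-fold, adjusted p = 2.98e-08), and Itpka, a kinase of inositol trisphosphate, read 5.01, 5.02 and 4.99 on the wild-type arrays and 6.50, 6.37 and 6.36 on the homozygous arrays, at 1.40 ± 0.07 (SE; 2.64-fold, adjusted p = 7.91e-08). The 2 glucose transporter genes measured moved oppositely. Slc2a1 read 10.63, 10.74 and 10.71 on the wild-type arrays and 9.93, 9.68 and 9.74 on the homozygous arrays and fell by 0.91, while Slc2a3 read 7.64, 7.69 and 7.71 on the wild-type arrays and 8.42, 8.33 and 8.39 on the homozygous arrays and rose by 0.70. Catalase, Cat, fell by 0.64, the lactate transporter Slc16a1 by 0.62, Bpgm, which makes the bisphosphoglycerate that lowers oxygen affinity, by 0.56 and carbonic anhydrase 2, Car2, by 0.33. The antioxidant genes Prdx2 at 0.04, Gpx1 at -0.03 and Sod1 at -0.08 were not called. In this list 7 of 17 (41.2%) were lower and 4 (23.5%) higher, against 14.9% and 10.7% of all genes.

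Genes of terminal red cell maturation, which clear organelles and condense the nucleus, were lower in 11 of 17, with none higher and a median of -0.34. Trim10, a ring finger protein of maturing erythroblasts, read 11.95, 11.98 and 11.97 on the wild-type arrays and 10.84, 10.86 and 10.87 on the homozygous arrays. The ubiquitin-conjugating enzyme Ube2h read 10.59, 10.65 and 10.66 on the wild-type arrays and 9.55, 9.49 and 9.55 on the homozygous arrays, and its further probe sets gave falls of similar size. The differences were -1.11 ± 0.05 (SE; 2.16-fold, adjusted p = 4.01e-08) and -1.10 ± 0.05 (SE; 2.15-fold, adjusted p = 5.1e-08). The nuclear exporter Xpo7 fell by 0.85, the ubiquitin ligase Ube2o, which marks ribosomes for removal, by 0.78, the mitophagy receptor Fundc1 by 0.72 and the autophagy genes Gabarapl2 and Map1lc3b by 0.43 and 0.34. The survival gene Bcl2l1 fell by 0.33. The autophagy kinase Ulk1 at -0.09 and the ubiquitin-conjugating enzyme Ube2l6 at -0.02 were not called.

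Erythroid transcription factors were lower in 9 of 18 and higher in 2 (1 when any array but homozygous array 3 was left out). Myb, a factor of proliferating progenitors, read 5.70, 5.31 and 5.18 on the wild-type arrays and 3.00, 3.67 and 3.57 on the homozygous arrays, a difference of -1.98 ± 0.17 (SE; 3.95-fold, adjusted p = 3.66e-06). The repressor Klf3 read 8.63, 8.67 and 8.72 on the wild-type arrays and 7.49, 7.39 and 7.42 on the homozygous arrays, at -1.24 ± 0.06 (SE; 2.36-fold, adjusted p = 3.29e-08). Tal1 and its partner Lmo2, which hold together a DNA-bound complex with Gata1 and Ldb1, fell by 0.96 and 0.92, and Ldb1 by 0.32. Mxi1, an antagonist of Myc, fell by 0.71 and Foxo3 by 0.37. Klf1, the activator of globin genes, at -0.02, Zbtb7a at -0.10 and Bcl11a at 0.03 were not called. In erythropoietin signalling 4 of 12 genes (33.3%) were lower and 2 (16.7%) higher, against 14.9% and 10.7% of all genes. The kinase Jak2 fell by 0.77. Cish, a feedback target of the pathway, read 7.70, 7.67 and 7.63 on the wild-type arrays and 8.83, 8.62 and 8.70 on the homozygous arrays, a rise of 1.05, and the transducer Stat5a rose by 0.57. The receptor Epor was at -0.14 and Socs3 at -0.04, not called.

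Genes of stem and progenitor cells were lower in 5 of 20 (25.0%, against 14.9% of all genes), with none higher. Cd34 fell by 0.83, Cd48 by 0.76, the growth regulator Hmga2 by 0.64 and the protein C receptor Procr by 0.59. Kit, at -0.30 on a dim probe set, lost its call when single arrays were left out. Mecom at -0.16, Hlf at 0.13, Meis1 at 0.12 and Hoxa9 at 0.13 were not called. Of 13 genes of core binding factor and its partners, 2 were lower and 1 higher, against 14.9% and 10.7% of all genes. The higher gene was the related factor Runx3 at 0.29, a call lost when homozygous array 3 or wild-type array 3 was left out, and 4 genes were higher with quantile normalization. Runx1t1, a corepressor gene and the fusion partner of RUNX1 in another leukaemia, read 7.18, 7.10 and 7.29 on the wild-type arrays and 5.79, 5.66 and 5.85 on the homozygous arrays, a difference of -1.42 ± 0.07 (SE; 2.68-fold, adjusted p = 6.6e-08). The other myosin heavy chains Myh9 and Myh10 were at 0.21 and -0.09, not called. The lymphoid list held 1 lower gene, the immunoglobulin chain Ighm at -0.70, and 1 higher of 17, the recombinase gene Rag2 at 0.23, whose call was lost when any array but wild-type array 3 was left out. The mast cell list of 12 held the protease Cpa3 at -1.22 on the lower side. On the higher side it held the cytokine receptor subunit Csf2rb2 at 0.60. The shares each way were 5.88% in the lymphoid and 8.33% in the mast cell list, below those of all genes.

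Cell cycle genes moved in both directions. Of 30 genes of replication licensing and DNA synthesis, 14 were higher and none lower, with a median of 0.23. The licensing factors Cdc6 and Cdt1, which load the helicase onto origins, had the largest rises. Cdc6 read 5.70, 5.70 and 5.65 on the wild-type arrays and 7.15, 7.03 and 6.94 on the homozygous arrays and Cdt1 read 7.75, 7.83 and 7.78 on the wild-type arrays and 9.03, 8.96 and 9.00 on the homozygous arrays, at 1.36 ± 0.07 (SE; 2.56-fold, adjusted p = 6.44e-08) and 1.21 ± 0.05 (SE; 2.31-fold, adjusted p = 2.98e-08). The 6 subunits of the helicase itself were unequal. Mcm5 rose by 1.21, Mcm7 by 0.88, Mcm6 by 0.70, Mcm2 by 0.62 and Mcm3 by 0.49, and Mcm4 was at 0.21, not called. Mcm5 read 8.47, 8.50 and 8.43 on the wild-type arrays and 9.77, 9.63 and 9.61 on the homozygous arrays. The clamp loader subunits Rfc3 and Rfc4 rose by 1.15 and 0.72, the clamp Pcna by 0.40 and the polymerases Pole and Pold1 by 0.54 and 0.32. Rrm2 at 0.12, Tyms at 0.09 and Tk1 at 0.16, which supply nucleotides, and the cyclins Ccne1 at 0.05 and Ccne2 at 0.20 were not called. With reference genes set equal or with quantile normalization, 19 and 20 of the 30 were higher.

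For mitosis, 18 of 28 genes were lower and 1 was higher, at a median of -0.31. Nusap1, a spindle microtubule protein, read 9.97, 9.98 and 9.94 on the wild-type arrays and 9.12, 9.01 and 8.96 on the homozygous arrays, a difference of -0.94 ± 0.06 (SE; 1.91-fold, adjusted p = 3.25e-07). The cytokinesis genes Ect2, Prc1 and Kif23 fell by 0.82, 0.68 and 0.58, the centromere motor Cenpe by 0.75, the spindle motor Kif11 by 0.66 and the proliferation marker Mki67 by 0.58. Falls were small for the cyclins Ccna2 (-0.25) and Ccnb2 (-0.35). The kinases Cdk1 (-0.14), Aurka (-0.06) and Aurkb (-0.09) and the activator Cdc20 (0.15) were not called, and Plk1 rose by 0.21, a call lost when wild-type array 1 or 3 was left out. For Top2a at -0.37 and Cenpa at -0.37, the sign turned when all probe sets of the gene were averaged.

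A list of CDK inhibitors, other genes of cell cycle exit, D cyclins and Cdk6 had 12 lower and 2 higher of 20, with a median of -0.42. Gadd45a read 9.59, 9.60 and 9.64 on the wild-type arrays and 8.06, 7.89 and 7.86 on the homozygous arrays, at -1.68 ± 0.06 (SE; 3.19-fold, adjusted p = 9.18e-09). The inhibitor Cdkn1b, also called p27, read 8.32, 8.48 and 8.38 on the wild-type arrays and 7.25, 7.18 and 7.24 on the homozygous arrays, at -1.17 ± 0.06 (SE; 2.25-fold, adjusted p = 9.76e-08). The pocket proteins Rb1, Rbl2 and Rbl1, which restrain E2F, fell by 1.03, 0.80 and 0.62, the antiproliferative genes Tob1 and Btg2 by 1.06 and 0.78, and Ccng2 by 1.00. The inhibitors Cdkn2c and Cdkn2d, known from late erythroblasts, fell by 0.48 and 0.36. Ccnd2, a D cyclin, read 6.02, 5.90 and 6.14 on the wild-type arrays and 7.12, 7.02 and 7.10 on the homozygous arrays, a rise of 1.06, whereas Ccnd3 was at -0.00 and Ccnd1 at 0.01, not called. The inhibitor Cdkn1a, also called p21, rose by 0.42. Among chromatin genes, the maintenance methylation genes Uhrf1 and Dnmt1 rose by 0.81 and 0.52, and Hmgb2 and Ezh2 fell by 0.94 and 0.74. That list of 14 had 3 each way (21.4%), against 14.9% lower and 10.7% higher of all genes.

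Genes for building ribosomes and mitochondria and for charging tRNAs were often higher. Among the brightest 3639 genes, 25.8% were called higher. Of 31 genes of the mitochondrial ribosome and import, 21 were higher and 3 lower, with a median of 0.37. Mrps18b, a mitochondrial ribosomal protein, read 6.26, 6.11 and 6.01 on the wild-type arrays and 7.58, 7.17 and 7.12 on the homozygous arrays, at 1.17 ± 0.11 (SE; 2.24-fold, adjusted p = 7.2e-06). Hspe1, the mitochondrial co-chaperone also called HSP10, rose by 0.90, whereas its partner Hspd1, HSP60, fell by 0.46. The mitochondrial ribosomal genes Mrpl12, Mrps7 and Mrps2 rose by 0.81, 0.76 and 0.76 and the import genes Timm8a1 and Timm13 by 0.73 and 0.72. The import receptors Tomm20 (0.01) and Tomm22 (-0.01) were not called. In oxidative phosphorylation 10 of 25 were higher and 3 lower. The complex I genes Ndufv1, Ndufa9 and Ndufs3 rose by 0.67, 0.65 and 0.61, while Ndufa1 and Ndufs1 of the same complex fell by 0.45 and 0.23 and the cytochrome oxidase gene Cox6c by 0.49. The succinate dehydrogenase genes Sdha (0.10), Sdhb (-0.01) and Sdhc (-0.07) were not called.

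Of 33 genes of tRNA charging and the amino acid response, 20 were higher and 1 lower, with a median of 0.31. Shmt2, a mitochondrial enzyme that passes a carbon of serine to folate, read 7.65, 7.67 and 7.51 on the wild-type arrays and 8.74, 8.60 and 8.67 on the homozygous arrays, at 1.06 ± 0.06 (SE; 2.09-fold, adjusted p = 2.14e-07), and its pathway neighbour Mthfd2 rose by 0.86. The valyl-tRNA synthetase Vars read 7.12, 7.06 and 6.97 on the wild-type arrays and 8.20, 8.00 and 8.00 on the homozygous arrays, at 1.02 ± 0.07 (SE; 2.02-fold, adjusted p = 7.85e-07). The synthetases Mars1, Yars, Farsb, Sars, Farsa and Kars rose by 0.80, 0.75, 0.71, 0.70, 0.69 and 0.62. The bifunctional synthetase Eprs was the only member that fell, by 0.38. Asparagine synthetase, Asns, rose by 0.61 and the stress factors Atf5 and Ddit3 by 0.86 and 0.45. Their upstream activator Atf4 at -0.14 and the targets Chac1 at -0.08, Slc7a11 at 0.08 and Psat1 at 0.00 were not called.

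In a list of ribosome biogenesis and Myc-related genes, 18 of 32 were higher and 8 lower, with a median of 0.30. Nme1, a nucleoside diphosphate kinase, read 8.65, 8.72 and 8.61 on the wild-type arrays and 9.98, 9.86 and 9.85 on the homozygous arrays, at 1.24 ± 0.06 (SE; 2.36-fold, adjusted p = 4.48e-08). Spermidine synthase, Srm, read 7.43, 7.44 and 7.40 on the wild-type arrays and 8.57, 8.55 and 8.48 on the homozygous arrays, at 1.11 ± 0.06 (SE; 2.15-fold, adjusted p = 1.62e-07). Fibrillarin, Fbl, which methylates ribosomal RNA, rose by 0.97, the polymerase subunit Polr1c by 0.91, Nhp2 by 0.89, the helicase Ddx21 by 0.80 and the assembly factors Pes1 and Bop1 by 0.71 and 0.68. Myc itself rose by 0.32, and its partner Max and rival Mxd1 fell by 0.55 and 0.73. The abundant nucleolar proteins Ncl and Npm1 fell by 0.41 and 0.18, the latter a call lost when single arrays were left out. Of 16 cytosolic ribosomal protein genes that could be measured, 7 were higher and 1 lower, all by less than 0.5 except Rpl14 at 0.82. Many of these genes have near-identical pseudogenes. Of 17 translation factors 7 (41.2%, against 10.7% of all genes) were higher, led by the helicase Eif4a1 (0.78) and Eif3b (0.78). In the same list 3 (17.6%, against 14.9%) were lower, among them Eif5, which fell by 1.00, and Eif3a, which fell by 0.79.

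Of 20 genes of glycolysis and the hypoxia response, 9 (45.0%) were higher and 3 (15.0%) lower, against 10.7% and 14.9% of all genes. Tpi1, triose phosphate isomerase, read 8.96, 8.97 and 9.02 on the wild-type arrays and 10.39, 10.33 and 10.31 on the homozygous arrays, at 1.36 ± 0.05 (SE; 2.56-fold, adjusted p = 1.27e-08), with 1.43 and 1.56 on the remaining probe sets. Pfkp rose by 0.89, Aldoa by 0.85, Pgam1 by 0.81, Ldha by 0.74, Pfkl by 0.68 and Pgk1 by 0.67. The entry steps did not follow, with Slc2a1 and Hk1 lower by 0.91 and 0.22, and Hk2 at -0.25 not called. The hypoxia targets Vegfa at 0.15, Adm at 0.16, Bnip3 at 0.05 and Pdk1 at -0.04 were not called. In cholesterol and fatty acid synthesis, Fasn, Fdps and Fdft1 rose by 0.85, 0.70 and 0.48 and Idi1 and Insig1 fell by 0.39 and 0.34. Of these 17 genes 5 were higher (29.4%) and 4 lower (23.5%), against 10.7% and 14.9% of all genes. The lower count was 2 when homozygous array 3 or wild-type array 1 was left out.

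**Figure D5:**
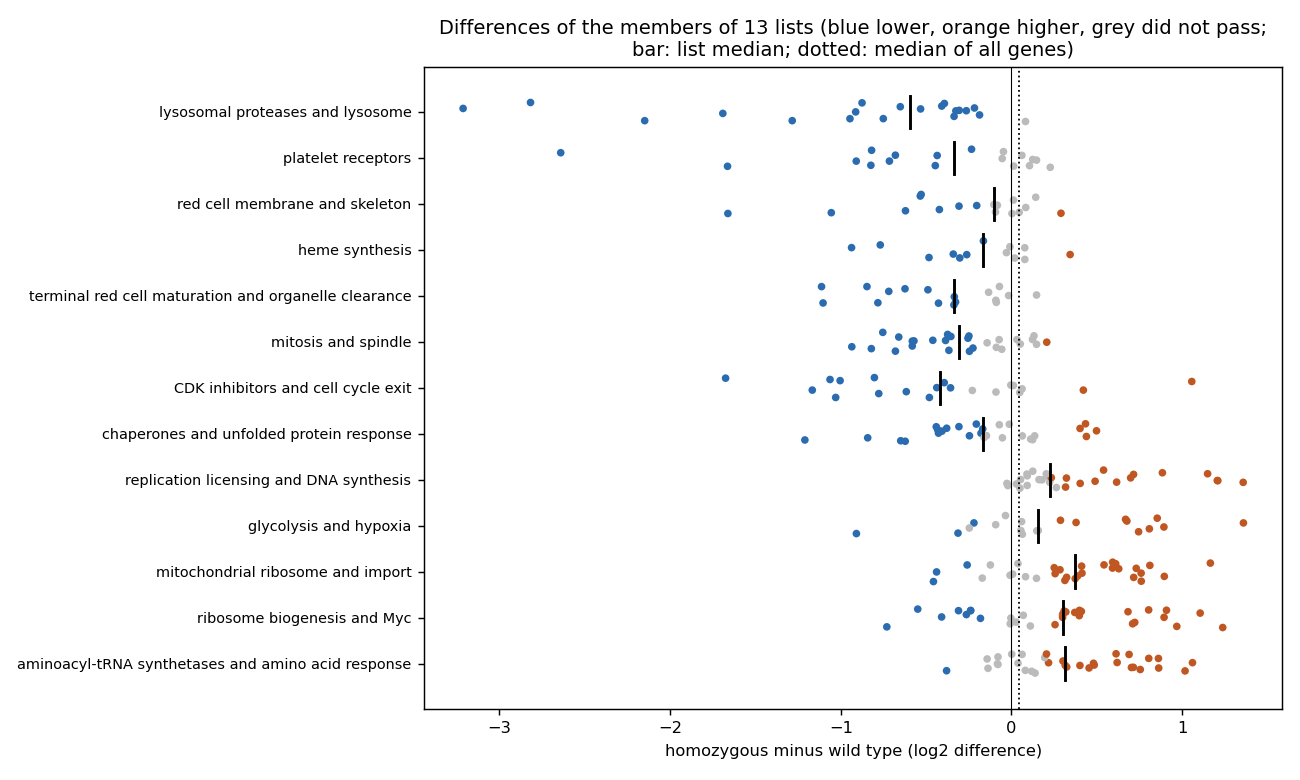
Homozygous minus wild-type log2 difference (horizontal axis) of each measured gene in 13 lists, 1 point per gene, blue where called lower, orange where called higher and grey where not called, with the list median as a bar and the median of all genes as a dotted line. The lysosomal list reaches -3.21, mitosis and cell cycle exit genes lie mostly left of 0, and replication, mitochondrial ribosome and tRNA synthetase genes mostly right of 0.

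Protein folding genes were lower in 14 of 27 (51.9%) and higher in 4 (14.8%), against 14.9% and 10.7% of all genes. The endoplasmic reticulum chaperones Dnajb9, Hsp90b1, Hspa5 and Calr fell by 1.21, 0.84, 0.65 and 0.41, and Hspa5 read 10.59, 10.62 and 10.64 on the wild-type arrays and 10.04, 9.95 and 9.91 on the homozygous arrays. The 4 measured subunits of the cytosolic chaperonin, Tcp1, Cct8, Cct2 and Cct5, rose by 0.50, 0.44, 0.43 and 0.40. With quantile normalization or reference genes set equal, 10 of the 27 were lower. Hspa8 at -0.01, Hsp90aa1 at -0.15 and the reticulum proteins Pdia4 at 0.06 and Dnajc3 at 0.11 were not called. The proteasome list was split, with 9 of 27 lower (33.3%) and 6 higher (22.2%), against 14.9% and 10.7% of all genes. With quantile normalization the split was 7 lower and 11 higher.

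Immediate early genes were lower in 10 of 23 (43.5%) and higher in 2 (8.70%), against 14.9% and 10.7% of all genes. Klf6 read 7.66, 7.59 and 7.74 on the wild-type arrays and 6.28, 6.14 and 6.15 on the homozygous arrays, at -1.47 ± 0.06 (SE; 2.78-fold, adjusted p = 2.37e-08), with -2.16, -2.25 and -2.00 on the remaining probe sets. Fos read 8.75, 8.74 and 8.71 on the wild-type arrays and 7.80, 7.63 and 7.64 on the homozygous arrays, a fall of 1.04, and Jun, Egr1 and Zfp36l1 fell by 0.92, 0.66 and 0.88. Junb at 0.03, Dusp1 at 0.08 and Nr4a1 at 0.01, induced by the same stimuli, were not called. Of 24 interferon response genes 6 (25.0%) were lower and 1 (4.17%) higher, against 14.9% and 10.7% of all genes. Rsad2, the antiviral protein viperin, read 10.70, 10.69 and 10.70 on the wild-type arrays and 8.80, 8.77 and 8.66 on the homozygous arrays, a bright signal on all arrays, and fell by 1.95. Ifitm3 read 6.51, 6.31 and 6.22 on the wild-type arrays and 4.42, 4.11 and 4.18 on the homozygous arrays, at -2.11 ± 0.10 (SE; 4.31-fold, adjusted p = 3.88e-08), and the related gene Ifitm2 read 7.90, 7.85 and 7.87 on the wild-type arrays and 4.81, 4.95 and 4.92 on the homozygous arrays, at -2.98 ± 0.07 (SE; 7.9-fold, adjusted p = 1.01e-10). Ifi35 read 10.11, 10.17 and 10.10 on the wild-type arrays and 11.34, 11.15 and 11.19 on the homozygous arrays, a rise of 1.10. The pathway factors Irf7 (-0.03), Irf9 (0.00) and Stat2 (0.05) and the target Mx1 (-0.02) were not called. Among apoptosis and p53 genes, Sesn1 fell by 1.25 and Mdm2 by 0.78, in a list of 20 with 7 lower and 3 higher, and the count of higher genes was 0 when homozygous array 1 or wild-type array 3 was left out and 1 without wild-type array 1.

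Of 20 hepatocyte and visceral endoderm genes 10 were higher and none lower. Afp, alpha-fetoprotein, read 7.83, 7.88 and 7.88 on the wild-type arrays and 9.04, 8.87 and 8.85 on the homozygous arrays, at 1.06 ± 0.07 (SE; 2.08-fold, adjusted p = 6.86e-07). Rbp4, the retinol carrier, read 4.79, 4.68 and 4.79 on the wild-type arrays and 5.83, 5.53 and 5.67 on the homozygous arrays, a rise of 0.92, and the apolipoproteins Apoa1 and Apoa2 rose by 0.82 and 0.78. The liver factor Hnf4a at -0.05 and the yolk sac receptors Cubn at -0.17 and Amn at 0.05 were not called. Matrix genes fell in 11 of 25 (44.0%, against 14.9% of all genes), led by the proteoglycan Lum at -1.02 and Col3a1 at -0.94. Fibronectin, Fn1, read 8.03, 8.03 and 7.98 on the wild-type arrays and 8.92, 8.87 and 8.89 on the homozygous arrays, a rise of 0.88. Of 18 neural genes 7 were higher, led by Nnat at 0.89 and Crabp1 at 0.80. Muscle genes gave 1 lower and 2 higher of 18 (1 higher when any wild-type array was left out), epithelial genes 1 higher of 14 and endothelial genes 1 lower of 21, which was Lyve1, a gene that macrophages also express. None of these 3 lists exceeded the 14.9% lower of all genes, and muscle genes, at 11.1% higher, were near the 10.7% of all genes. Among imprinted genes 8 of 18 (44.4%) were lower and 1 (5.56%) higher. Peg3 read 8.23, 8.30 and 8.26 on the wild-type arrays and 6.77, 6.76 and 6.66 on the homozygous arrays, at -1.53 ± 0.06 (SE; 2.89-fold, adjusted p = 7.87e-09), and Igf2 fell by 0.40, while the paired genes Dlk1 at 0.02 and Meg3 at 0.08 were not called.

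Further genes were among the 30 largest changes in each direction. On the lower side were the actin-sequestering peptide gene Tmsb4x, which read 11.46, 11.43 and 11.46 on the wild-type arrays and 9.19, 8.88 and 8.96 on the homozygous arrays, the endocytic adaptor Dab2 at -2.27, the membrane-shaping ATPase Ehd4 at -2.25, the leukocyte tetraspanin Cd53 at -2.15, Evi2a at -2.16 and Fcrls, a macrophage scavenger-receptor-like gene, at -2.30. The genotypes did not overlap for any of them. On the higher side, Alg3, a mannosyltransferase of glycan assembly, read 6.81, 6.94 and 6.80 on the wild-type arrays and 8.16, 8.19 and 8.13 on the homozygous arrays and Sgf29, a chromatin reader, read 6.20, 6.11 and 6.04 on the wild-type arrays and 7.44, 7.32 and 7.33 on the homozygous arrays. Dcbld2 rose by 1.17, Prmt7, an arginine methyltransferase, by 1.16, the mitochondrial ATPase Atad3a by 1.13, the endopeptidase Ece2 by 1.13, Pold2, a DNA polymerase subunit, by 1.06 and the RNA polymerase subunit Polr2h by 1.02. Tmem109, a membrane protein gene, rose by 1.09, Trim27, a tripartite motif gene, by 1.02, the radial spoke gene Rsph9 by 1.02, the hydrolase gene Abhd11 by 1.01 and Znrd2 by 1.00. The other probe sets of Tmem109 gave 1.18, 0.28, 0.25 and -0.07, the last 2 not called, and for Trim27 0.61 and 0.78 were called and 0.06, 0.21 and -0.06 were not.

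The region around Cbfb on chromosome 8 was examined because a targeted allele on a mixed background can carry flanking DNA of its own strain. Of the 50 measured genes on each side of Cbfb, 9 were higher and 12 lower, 21.0% called against 25.6% of all genes. Their differences ran from -0.87 (Ranbp10) to 1.16 (Prmt7, also among the 30 largest rises). The part of flanking DNA in them was not tested. Of the 10 nearest on each side, 0 were higher and 1 lower. By chromosome, the share of genes called lower ranged from 9.77% to 20.0% over the autosomes and was 19.6% (121 of 617) on the X chromosome, and the share called higher ranged from 5.13% to 16.9% and was 9.24% on the X.

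Some of these genes have further probe sets that did not follow the brightest. Among the large falls, the further probe set was not called for Ptprc (0.03), Cd53 (-0.04), Evi2a (0.05), Fcgr1 (-0.01), Man2b1 (0.04), Hfe (-0.10), Mpp1 (0.02), Flvcr1 (0.19), Alox12 (-0.18), Ms4a7 (-0.09), Ctsl (0.02), Cebpd (0.22), Cdkn1b (0.02), Ccr1 (-0.06), Tob1 (0.13), Rb1 (-0.15) and Thbs1 (-0.18). For Pycard they gave -0.13 and -0.07 and were not called, and for Ctsc -0.37, which was called, and -0.29, which was not. Among the rises, none was called for Ece2 (0.08), Dcbld2 (-0.12 and 0.24) or Prmt7 (-0.09 and -0.10). A further probe set was called in the opposite direction for Hspa5 (0.20), Cenpa (0.58), Top2a (0.20) and Xist (-0.28). Some genes not called above had a dimmer probe set that was, including the phosphatase gene Ptpn6 (-1.02), the heme enzymes Cpox (-0.41 and -0.70) and Alad (-0.33), the iron exporter Slc40a1 (-0.56), Prdx2 (-0.37), Ccnd3 (0.53 and -0.35) and Mcm4 (0.33). Where several probe sets read a gene alike, as for Slc2a1 (-0.91, -1.19 and -1.30), Shmt2 (1.06, 1.14, 0.67 and 0.99), Jak2 (-0.77 and -1.07) and Myb (-1.98, -1.03 and -0.37), the direction does not rest on a single probe set.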

How the data were processed

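Total RNA of pooled blood was isolated by RNA-STAT extraction and given a biotin label by a one-cycle kit, per the labels' protocols, and hybridized to whole-genome Affymetrix mouse arrays, 3 per genotype. RMA, Affymetrix Expression Console 1.0 and Partek 6.5 are listed, without roles, in the submitters' processing notes. The authors deposited values of 1.49 to 14.56 for 45101 probe sets on 9 arrays, treated here as log2 and normalized by RMA, given that range and the processing notes. RMA equalizes arrays and so removes a uniform difference in RNA content. Signal over background cannot be given, since no scanner file was used here. Precision is limited by the number of arrays.

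The 64 control probe sets were set aside and 45037 tested. The platform annotation gave 1 symbol to 34945, several to 932 and none to 9160, and genes were named only from the first. limma 3.58.1 in R 4.3.3 fitted genotype to all 9 arrays, with 2-sided tests adjusted by Benjamini-Hochberg over all probe sets at 0.05. The fit was checked on simulated arrays.

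The members and the 52 gene lists (953 of 1045 genes measured) were chosen with earlier results of these data known. Named genes are Cbfb, Runx1, Myh11, the 30 largest falls and rises with arrays apart, called list members and up to 5 uncalled members per list. Replicate numbers are not known to pair arrays of the 2 genotypes. Residuals of arrays with the same number correlated at 0.03, -0.01 and 0.02, and those with different numbers at -0.04 to 0.03. Promoters were 250 bases upstream of the first listed start in RefSeq.

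Alternatives were other samples in the fit, a replicate block, array weights, an intensity trend, cyclic loess, quantile, median and reference gene scaling, removal of dim or _x_at and _s_at probe sets, gene means, a threshold of 0.01 and leaving out each array. Figures were drawn with matplotlib 3.10.9.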

Additional observations from a re-analysis of the deposited data

Results flagged for a closer look

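Control probe sets, which are no part of the comparison of genes, differed between the genotypes. The mean of 24 poly-A spike-in probe sets was higher by 1.58 on the log2 scale on the homozygous arrays than on the wild-type arrays, and single probe sets by 0.91 to 2.14. The mean of 18 hybridization spike-in probe sets was higher by 0.28. Their part in the differences between genes was not tested.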

How the results depend on the processing

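At a threshold of 0.01 in place of 0.05, 2015 probe sets and 1147 genes were called higher, against 3758 and 1950. The other alternatives moved no total by over 1.5 times. Leaving out each array in turn gave 7284 to 8806 called probe sets (4524 to 5127 lower, 2760 to 3679 higher, 622 to 688 with at least 2-fold) and 3854 to 4562 called genes (2371 to 2678 lower, 1483 to 1884 higher). With the replicate number as a block, 8905 probe sets were called against 9019. The numbers are not known to pair arrays. The share of called probe sets that were higher was 41.7% and ranged from 33.0% at 0.01 and 33.6% with cyclic loess to 51.0% with reference genes, which moved all differences by 0.04. Of the 60 largest changes, 57 kept direction and call in every alternative, and of 492 called list members 383 did.

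Directions turned where the probe sets of a gene differ. Without probe sets ending in _x_at or _s_at, the difference was -0.0173 for Bmf, -0.3055 for Dnajc3, 0.1284 for Gnas, 0.0123 for Ighm, 0.071 for Laptm5, 0.0262 for Psmd11 and -0.2833 for Xist. Of these values only those of Dnajc3 and Xist were called, and Dnajc3 was not called on its brightest probe set. With the mean of all probe sets it was 0.0677 for Cenpa, 0.0045 for Top2a, -0.1263 for Alad, 0.1782 for Ank1, -0.1316 for Bcl11a, -0.3636 for Cpox and -0.1624 for Prdx2. The means of Cenpa and Top2a were not called. Those of the other genes were, but none of these other genes was called on its brightest probe set. Beyond the choice of probe sets, the cause was not tested. Signal over background is unknown, so a small difference at low signal cannot be told from a compressed one.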
